A study of Mus musculus with 21 samples.

Results

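The response of the retina to optic nerve crush (ONC) was compared between mouse embryos at E20, the last embryonic day studied, and newborns at P1. The comparison covered 45 genes of the 46 in the deposited tables, every gene other than the Y-linked Kdm5d, and 13 of the 21 libraries. For each gene the effect of ONC at E20 minus the effect of ONC at P1 was tested, so that a positive difference means a higher effect in the embryo.

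Each library held polyadenylated RNA of a single retina from a C57BL/6 wild-type mouse. The E20_NTC group (3 libraries) and the P1_NTC group (4 libraries) came from mice without crush, and the E20_ONC and P1_ONC groups (3 libraries each) were collected 6 hours after ONC under ice anaesthesia. There was no group with surgery alone, so the nerve injury, the anaesthesia on ice and the operation are confounded and cannot be told apart. The paper states that pregnant mice received xylazine and ketamine and were killed, and that operated mice lay on a warmed plate for 6 hours. Crushed embryos thus spent these hours outside the uterus, and this and the drugs given to the mother cannot be told apart from age. Each retina was taken as a biological replicate and all mice of an age came from the same litter, so p-values measure the spread between retinas of that litter only. In the sequencing quality table of the study the identifiers of the newborn libraries form another number series than those of the embryos, and age, litter and library series cannot be told apart.

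The libraries held 14433863 to 19333818 assigned fragments (median 16161492), of which the genes of the table took 0.0794% to 0.187%. Levels are given as CPM, the counts of a gene per 1000000 assigned fragments. The sex of the mice, read from Kdm5d, was not balanced at E20. E20_NTC replicates 1 and 2 held 1135 and 799 Kdm5d counts, whereas E20_NTC replicate 3 and the 3 E20_ONC libraries held 0. At P1 the gene was at 658 counts or more in P1_NTC replicates 1 and 2 and in P1_ONC replicates 1 and 4, and at 0 or 1 in the other 3 libraries. P1_NTC replicates 3 and 4 also stood apart in genes of the pigment epithelium, and results that rest on them are given with and without them.

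The optic nerve is the bundle of retinal ganglion cell axons, and crushing it severs these axons behind the eye. Injured neurons and the glia around them switch on immediate early genes, which encode transcription factors such as FOS and EGR1 and need no new protein to be transcribed. Around birth the mouse retina still holds dividing progenitors, and fibroblast growth factors (FGFs) and their ETS-family targets pattern it, while astrocyte precursors enter through the optic nerve head. In bulk retina fewer cells of a type and less RNA per cell cannot be told apart.

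At E20, 16 genes were higher after ONC (35.6% of the 45 genes) and 11 were lower (24.4%), and at P1, 11 were higher (24.4%) and 12 lower (26.7%). A gene was called within an age where its edgeR adjusted p was below 0.1 and its level changed by more than 1.5-fold. The study chose these genes for their changes in the same libraries, so these shares describe the table and not the transcriptome. The difference between the ages itself was called at an adjusted p under 0.1. It was called for 10 genes (22.2%), of which 6 had a higher effect at E20 (13.3%) and 4 a lower effect at E20 (8.89%).

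Genes called at both ages moved in the same direction in 15 cases, 8 of them higher (17.8% of the genes) and 7 lower (15.6%). Bhlhe41 alone was called in opposite directions. A further 11 genes were called only at E20 and 7 only at P1, and for 12 of these 18 the difference between the ages was not called, so they are not shown to respond at one age alone. The remaining 11 genes were called in neither comparison. A missing call leaves wide room. The 95% interval of the difference spanned a median of 2.46 on the log2 scale in the 33 uncalled genes that could be measured, and it lay within 1 log2 unit of 0 only for Foxn4 and Nfatc4.

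**Figure D1:**
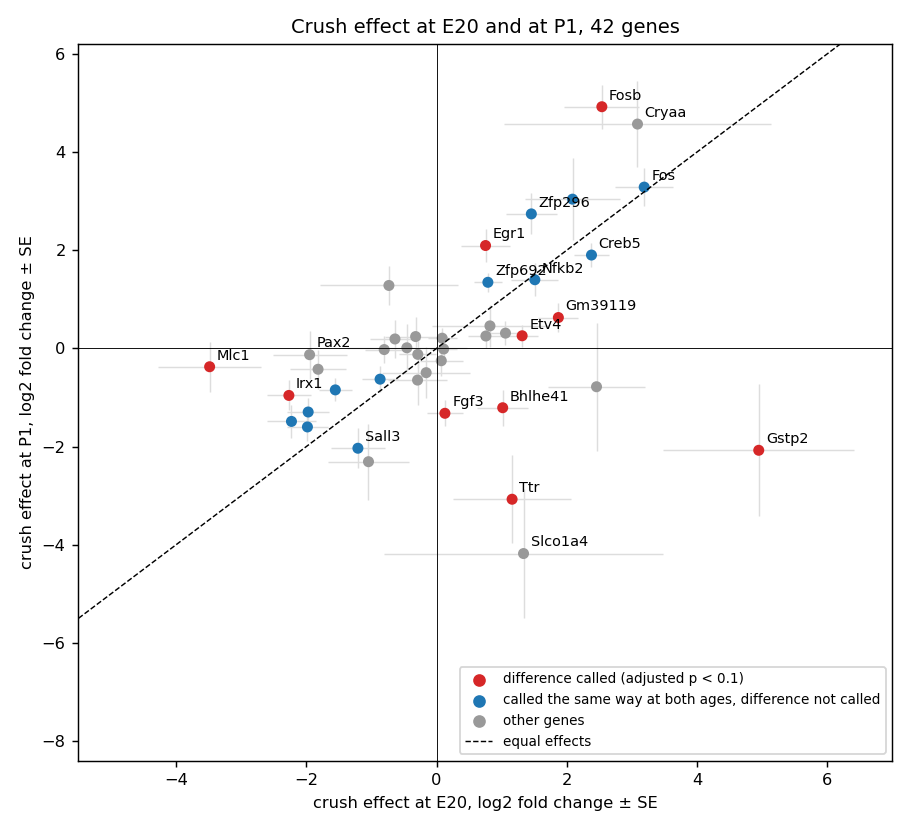
Effect of ONC at E20 (horizontal axis) against P1 (vertical axis), both as log2 fold change ± SE, for 42 genes. The dashed line marks equal effects. Red genes have a called difference between the ages, blue genes were called the same way at both ages without one, and grey genes are the rest. Fosb and Egr1 lie above the line, Bhlhe41, Fgf3, Etv4, Ttr and Gstp2 below it on the side of a higher effect at E20, and Mlc1 and Irx1 far to the left. Lcn2 and AW822073 are left out because they had too few counts at P1 for a fold change, and 1 gene is not reported here.

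Of the 3 immediate early genes, Fos and Fosb rose at both ages and Egr1 was called at P1 only. Fos rose about as much in the embryo as in the newborn, whereas the effects of Fosb and Egr1 were called higher at P1. Of 28 alternatives in which they were tested, the Egr1 call was lost under 19 and the Fosb call under 5. The study had listed Fosb for its change at E20 and Egr1 for its change at P1 in the same libraries. The median log2 effect of the 3 genes was 2.54 at E20 and 3.28 at P1, beside 0.11 and -0.02 over all 45 genes.

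Fos and Fosb encode partners of the AP-1 transcription factor and are classical targets of CREB, which binds the cyclic AMP response element TGACGTCA or its core TGACG. Their promoters are shown because these paralogous genes rose together at both ages and yet differed in the size of the rise. The sequences are from RefSeq (GRCm38.p6) and run from 250 bases before the start site to 50 bases after it, on the strand of the gene, at chr12:85473640-85473939 (plus strand) for Fos and chr7:19309996-19310295 (minus strand) for Fosb. Capitals mark TGACG and the TATA box letters TATAAA.
Fos: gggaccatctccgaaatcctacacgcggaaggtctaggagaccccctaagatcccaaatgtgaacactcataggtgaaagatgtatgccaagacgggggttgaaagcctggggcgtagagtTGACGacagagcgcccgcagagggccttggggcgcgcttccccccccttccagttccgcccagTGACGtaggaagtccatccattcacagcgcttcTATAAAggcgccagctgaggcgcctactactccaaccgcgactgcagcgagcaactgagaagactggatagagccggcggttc
Fosb: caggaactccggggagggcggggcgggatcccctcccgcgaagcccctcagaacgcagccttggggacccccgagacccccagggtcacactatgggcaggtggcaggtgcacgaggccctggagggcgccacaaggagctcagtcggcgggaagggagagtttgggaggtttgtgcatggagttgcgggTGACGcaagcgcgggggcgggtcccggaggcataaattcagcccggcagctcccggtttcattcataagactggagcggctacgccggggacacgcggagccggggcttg
The letters were searched on both strands. TGACG occurred in both promoters, with 2 matches in Fos at 129 and 66 bases before the start site and 1 match in Fosb at 60 bases before it, and 20.8% of the 32851 mouse promoters of this length held it. TATAAA was found in Fos at 33 bases before the start site and not in Fosb, and 13.6% of promoters held it. Neither promoter held the whole element TGACGTCA (1.79% of promoters) or the AP-1 letters TGACTCA (5.20%). TGACGTCA contains TGACG. A match is a description of the letters and does not show a bound site.

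Fosb (chr7:19302696-19310051 in mm10, the build of the deposited files) stood at 0.103, 0.186 and 0.266 CPM in E20_NTC and at 0.459, 1.52 and 1.27 CPM in E20_ONC. In the newborn it stood at 0.232, 0.236, 0.577 and 0.382 CPM in P1_NTC and at 15.1, 11.1 and 7.20 CPM in P1_ONC. The groups did not overlap at either age, as was so for 60.0% of the genes at E20 and 48.9% at P1, and each P1_ONC library was above each E20_ONC library. Fosb rose 5.81-fold at E20 (log2 fold change 2.54, SE 0.58, edgeR adjusted p 0.00322) and 30.3-fold at P1 (4.92, SE 0.45, adjusted p 4.36e-06). The difference of -2.38 (SE 0.80, 95% interval -4.12 to -0.65, edgeR adjusted p 0.0605) was called. It was no longer called without E20_NTC replicate 2 (-2.36), E20_NTC replicate 3 (-2.05) or P1_ONC replicate 1 (-2.10). The call was also lost in 1 fit of all 6 groups (-2.39, edgeR adjusted p 0.351).

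Egr1 (chr18:34859823-34864984) encodes a zinc finger factor that is induced in many neurons by activity and injury. It was at 2.74, 3.22 and 3.19 CPM in E20_NTC and at 7.14, 2.42 and 5.83 CPM in E20_ONC, where replicate 2 lay below all controls. In P1_NTC it was at 5.79, 6.54, 4.56 and 3.06 CPM and in P1_ONC at 19.0, 25.7 and 19.3 CPM, with no overlap. Its rise at P1 was 4.27-fold (log2 fold change 2.09, SE 0.34, edgeR adjusted p 0.000342), whereas the value at E20 was 1.68-fold and not called (0.75, SE 0.38, adjusted p 0.113). The difference of -1.34 (SE 0.51, 95% interval -2.45 to -0.24) passed narrowly, with an edgeR adjusted p of 0.096. Of the 13 settings with 1 library left out only those without E20_ONC replicate 1, P1_NTC replicate 1 or P1_NTC replicate 2 kept the call, and the other 10 gave -1.44 to -1.01. It was not called with detection of Kdm5d (-1.40) or Kdm5d at 10 or more counts (-1.26) as a covariate. Nor was it called without P1_NTC replicates 3 and 4 together. The call was also lost with TMM factors (-0.98, edgeR adjusted p 0.279) and median-of-ratios factors (-1.22, adjusted p 0.175). The same held in 1 fit of all 6 groups (-1.34, adjusted p 0.351) and with the replicate block (-1.47, adjusted p 0.203).

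Fos (chr12:85473890-85477273) rose at both ages by nearly the same factor. It was at 0.879, 0.743 and 0.863 CPM in E20_NTC and at 3.21, 8.87 and 10.8 CPM in E20_ONC. In P1_NTC it was at 2.08, 1.30, 2.99 and 1.78 CPM and in P1_ONC at 19.5, 18.2 and 22.2 CPM. Neither age had overlapping groups, and replicate 1 was the lowest of the E20_ONC libraries as it was for Fosb. The rise was 9.11-fold at E20 (log2 fold change 3.19, SE 0.44, edgeR adjusted p 0.000201) and 9.75-fold at P1 (3.28, SE 0.38, adjusted p 2.87e-05). The difference was -0.10 (SE 0.61), and its 95% interval of -1.42 to 1.23 still allows the effects to differ by more than 1 log2 unit either way.

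**Figure D2:**
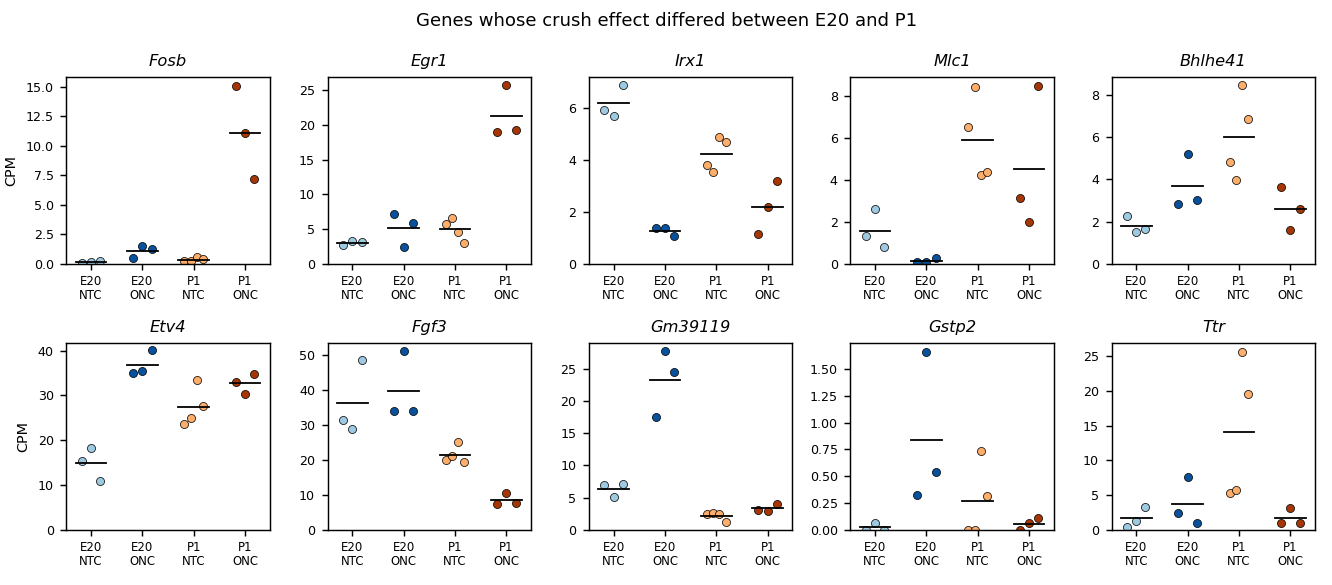
CPM per library (points) and group mean (bars) for the 10 genes with a called difference between the ages, with separate vertical axes. Fosb in P1_ONC lies between 7.20 and 15.1 CPM, above all other groups, and Fgf3 in P1_ONC lies between 7.41 and 10.5 CPM, below all other groups.

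Other regulators rose at both ages without a called difference. These were Creb5, a CREB-family factor, the zinc finger genes Zfp692 and Zfp296, Nfkb2, which encodes a subunit of the inflammatory factor NF-kappaB, and Cpne1, which encodes a calcium-dependent membrane-binding protein. Each rose at least 1.73-fold at each age.

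Creb5 (chr6:53287270-53700376) was at 2.53, 2.41 and 1.86 CPM in E20_NTC and at 10.02, 12.7 and 12.8 CPM in E20_ONC. It was at 3.76, 3.12, 4.35 and 4.46 CPM in P1_NTC and at 15.9, 10.6 and 17.6 CPM in P1_ONC. The groups were far apart at both ages. It rose 5.20-fold at E20 (log2 fold change 2.38, SE 0.27, edgeR adjusted p 4.97e-05) and 3.73-fold at P1 (1.90, SE 0.24, adjusted p 4.72e-05), and the difference was 0.48 (95% interval -0.29 to 1.25).

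Nfkb2 (chr19:46304737-46312090) was at 2.43, 2.48 and 1.79 CPM in E20_NTC, at 7.80, 4.57 and 6.77 CPM in E20_ONC, at 0.579, 1.18, 1.73 and 1.85 CPM in P1_NTC and at 3.83, 3.20 and 3.54 CPM in P1_ONC. The ONC libraries were above the controls at both ages although the newborn levels were lower in both groups. The rise was 2.85-fold at E20 (log2 fold change 1.51, SE 0.36, edgeR adjusted p 0.00399) and 2.64-fold at P1 (1.40, SE 0.34, adjusted p 0.00462). The difference was 0.11 (95% interval -0.98 to 1.20). Of the Nfkb2 exon bases 18.1% are shared with Psd and AC114539.1 on the opposite strand.

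Zfp692 (chr11:58307069-58314627) was at 44.2, 43.3 and 29.9 CPM in E20_NTC and at 65.2, 62.8 and 74.6 CPM in E20_ONC. At P1 it was at 18.8 to 20.8 CPM in the 4 controls and at 54.9, 48.3 and 48.4 CPM after ONC. The controls of the newborn lay below those of the embryo, and ONC brought the gene up 1.73-fold at E20 (log2 fold change 0.79, SE 0.21, edgeR adjusted p 0.00823) and 2.54-fold at P1 (1.35, SE 0.20, adjusted p 0.000163). The difference of -0.56 (95% interval -1.18 to 0.07, adjusted p 0.197) was not called. Without E20_NTC replicate 3 it was -0.72 and called.

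Zfp296 and Cpne1 rested on few counts. Zfp296 (chr7:19577287-19580656) had 3, 5 and 4 counts in E20_NTC, 15, 8 and 7 in E20_ONC, 1, 2, 1 and 2 in P1_NTC and 10, 12 and 10 in P1_ONC. It rose 2.74-fold at E20 (log2 fold change 1.46, SE 0.40, edgeR adjusted p 0.00828) and 6.68-fold at P1 (2.74, SE 0.42, adjusted p 0.000199), and the difference of -1.28 had a 95% interval of -2.79 to 0.22. Cpne1 (chr2:156071842-156111965) had 2, 8 and 0 counts in E20_NTC, 20, 6 and 13 in E20_ONC, 1 in each P1_NTC library and 11, 12 and 4 in P1_ONC, with an overlap at E20 only. Its log2 fold change was 2.09 at E20 (SE 0.73, edgeR adjusted p 0.0251) and 3.04 at P1 (SE 0.83, adjusted p 0.00997), and the difference of -0.95 had an interval of -3.35 to 1.45. Without E20_ONC replicate 1 the value at E20 was 1.66 and not called. Of the Cpne1 exon bases 84.1% are shared with Rbm12 and Gm28036 on the same strand, so its counts are uncertain. Zfp296 shares 12.9% of its exon bases with Gemin7 on the opposite strand.

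**Figure D3:**
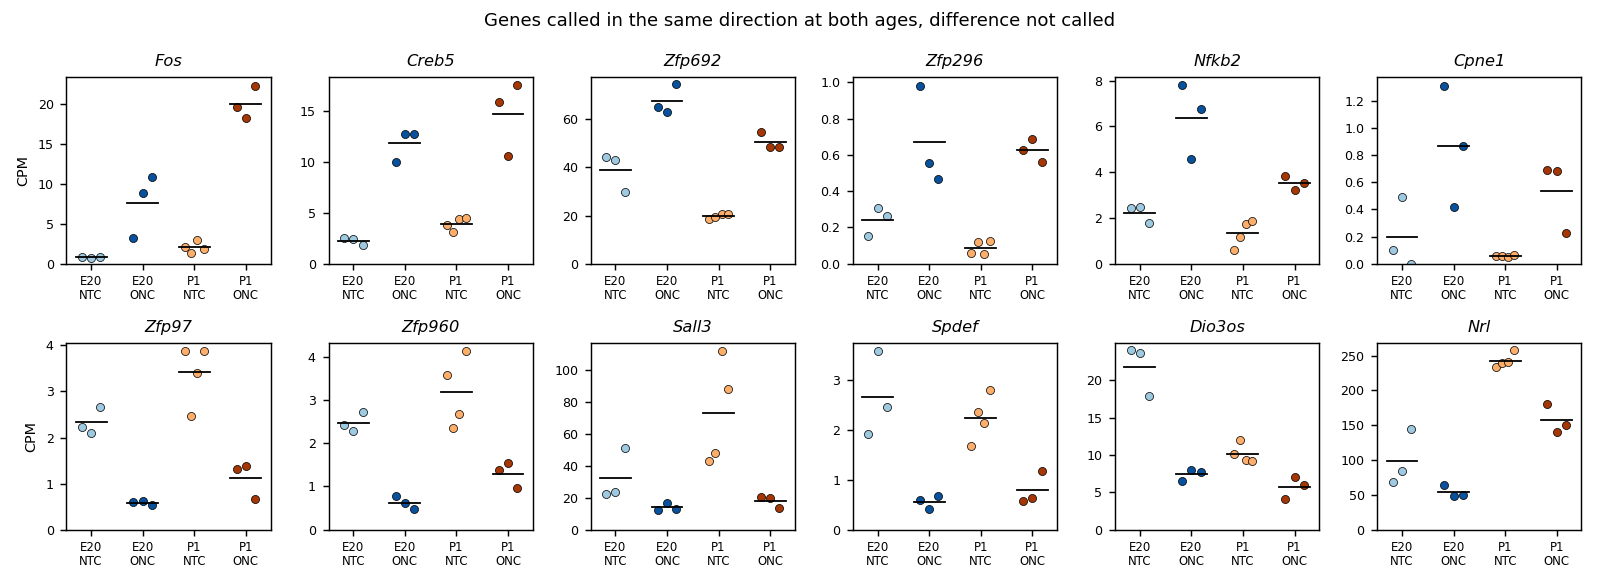
CPM per library (points) and group mean (bars) for the 12 genes called in the same direction at both ages without a called difference, each with its own vertical axis from 0. The upper row holds the 6 that rose, such as Fos from 0.743 to 0.879 CPM in E20_NTC to 3.21 to 10.8 CPM in E20_ONC and from 1.30 to 2.99 CPM in P1_NTC to 18.2 to 22.2 CPM in P1_ONC, and the lower row the 6 that fell.

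Fgf3 and Etv4 differed between the ages. The ETS factor Etv4, which FGF signalling induces, rose in the embryo and was not called in the newborn, and Fgf3, which encodes a secreted FGF of the embryonic retina, fell in the newborn and was not called in the embryo. Both differences were called, with the higher effect at E20. The difference was not called for Fgf15. This gene lies beside Fgf3 on chromosome 7 and encodes another FGF of the developing retina, and it rose at E20, as did the antisense gene Gm39119 at its locus.

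Etv4 (chr11:101769742-101785371) was at 15.3, 18.3 and 10.9 CPM in E20_NTC and at 34.9, 35.4 and 40.3 CPM in E20_ONC. It was at 23.7, 24.98, 33.5 and 27.6 CPM in P1_NTC and at 33.0, 30.4 and 34.9 CPM in P1_ONC, where the groups overlapped through P1_NTC replicate 3. The rise at E20 was 2.49-fold (log2 fold change 1.31, SE 0.24, edgeR adjusted p 0.00061), and the value at P1 was 1.19-fold (0.26, SE 0.22, adjusted p 0.439). The difference was 1.06 (SE 0.32, 95% interval 0.35 to 1.76, edgeR adjusted p 0.0492). It was 0.99 and not called without E20_ONC replicate 3, and 0.88 and not called without P1_NTC replicates 3 and 4.

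Fgf3 (chr7:144838083-144844436) was at 31.3, 28.8 and 48.6 CPM in E20_NTC and at 33.8, 51.1 and 33.9 CPM in E20_ONC, with overlap. It was at 19.9, 21.1, 25.1 and 19.3 CPM in P1_NTC and at 7.41, 10.5 and 7.65 CPM in P1_ONC, so that all newborn retinas after ONC lay below all controls. The log2 fold change was 0.13 at E20 (SE 0.27, edgeR adjusted p 0.71) and -1.32 at P1 (SE 0.27, adjusted p 0.00137), a fall to 0.40 of the control. The difference of 1.45 (SE 0.38, 95% interval 0.63 to 2.27, edgeR adjusted p 0.0492) was called without each library in turn. It was not called in 1 fit of all 6 groups (1.45, edgeR adjusted p 0.150) or with the replicate block (1.39, adjusted p 0.180).

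Fgf15 (chr7:144896531-144900953) was at 375, 328 and 402 CPM in E20_NTC and at 601, 931 and 770 CPM in E20_ONC, and at P1 the control range of 76.0 to 142 CPM overlapped the ONC range of 118 to 159 CPM. It rose 2.08-fold at E20 (log2 fold change 1.06, SE 0.27, edgeR adjusted p 0.00608), beside a log2 value of 0.31 at P1 (SE 0.25, adjusted p 0.407). The difference of 0.75 (95% interval -0.05 to 1.54, adjusted p 0.179) was not called. Gm39119 (chr7:144899313-144910085, minus strand) was at 6.88, 5.07 and 7.17 CPM in E20_NTC, at 17.6, 27.8 and 24.7 CPM in E20_ONC, at 2.43, 2.59, 2.36 and 1.21 CPM in P1_NTC and at 3.08, 2.92 and 3.995 CPM in P1_ONC. Its groups did not overlap at either age, and it rose 3.66-fold at E20 (log2 fold change 1.87, SE 0.31, edgeR adjusted p 0.000279) and 1.55-fold at P1 (0.63, SE 0.29, adjusted p 0.0994).

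The Gm39119 difference of 1.24 (SE 0.42, 95% interval 0.33 to 2.15, edgeR adjusted p 0.0605) was called, but not without E20_NTC replicate 2 (1.10), E20_ONC replicate 2 (1.10), E20_ONC replicate 3 (1.20), P1_NTC replicate 3 (1.19), P1_ONC replicate 1 (1.19) or P1_ONC replicate 2 (1.16), nor with detection of Kdm5d as a covariate (1.20). Its call at P1 was lost under 22 alternatives, among them the 1 without P1_NTC replicates 3 and 4 (0.41). With 1 library left out the call at P1 was kept only without E20_ONC replicate 1 or P1_NTC replicate 2. The other settings of this kind gave log2 fold changes of 0.44 to 0.72. Fgf15 shares 787 of its exon bases (25.7%) with Gm26793 and Gm39119 on the opposite strand. Only 26 of these bases lie in Gm39119, where they make up 2.73% of its exon bases. Whether the counting used strand is not given in the sources used here, so reads of the overlapping genes may not be told apart.

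Bhlhe41 was the gene that moved in opposite directions. It encodes a helix-loop-helix repressor that is known from the circadian clock and from the response to hypoxia. Bhlhe41 (chr6:145858243-145865558) was at 2.28, 1.49 and 1.66 CPM in E20_NTC and at 2.82, 5.20 and 3.02 CPM in E20_ONC, all above the controls. It was at 4.81, 3.95, 8.50 and 6.88 CPM in P1_NTC and at 3.64, 1.60 and 2.59 CPM in P1_ONC, all below the controls. It rose 2.02-fold at E20 (log2 fold change 1.02, SE 0.39, edgeR adjusted p 0.0395) and fell to 0.433 of the control at P1 (-1.21, SE 0.37, adjusted p 0.0159).

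The Bhlhe41 difference of 2.22 (SE 0.54, 95% interval 1.06 to 3.39, edgeR adjusted p 0.0492) was the only one of the 10 that was called under all 28 alternatives in which it was tested, with values from 0.72 to 2.54. Its calls within an age held less well. The rise at E20 was not called without E20_NTC replicate 2 (0.89), E20_NTC replicate 3 (0.96) or E20_ONC replicate 2 (0.68), and the fall at P1 was not called without P1_NTC replicates 3 and 4 (-0.75). With detection of Kdm5d (1.02, edgeR adjusted p 0.107) or Kdm5d at 10 or more counts (0.94, adjusted p 0.119) as a covariate the rise at E20 was not called either. Of its exon bases 19.0% are shared with Gm43909 on the opposite strand.

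**Figure D4:**
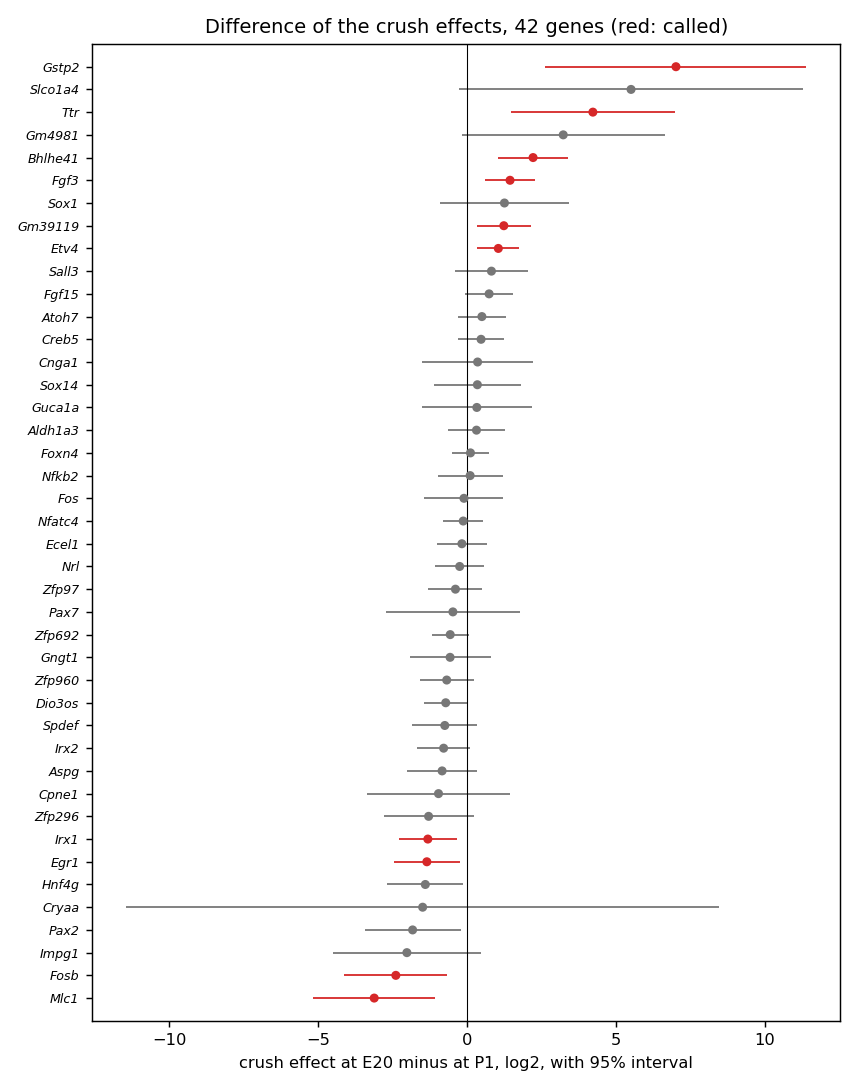
Effect of ONC at E20 minus that at P1, as log2 with its 95% interval, for 42 genes ordered by value. Red marks the 10 called genes. Gstp2 (7.02) and Ttr (4.23) have the highest called values and Mlc1 (-3.11) the lowest, and the intervals of genes with few counts, such as Cryaa (-11.44 to 8.47), are the widest.

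Of 10 genes of the embryonic retina and its progenitors, 2 rose and 3 fell at E20, and none rose and 4 fell at P1. Over all 45 genes 35.6% rose and 24.4% fell at E20, and 24.4% rose and 26.7% fell at P1. Their median log2 effect was -0.11 at E20 and -0.45 at P1, beside 0.11 and -0.02 over all genes. Irx1, an Iroquois homeobox gene of the developing retina, fell at both ages and more so in the embryo, and Sall3, a zinc finger gene of progenitors and cone and horizontal cells, fell at both ages. Atoh7, the factor that progenitors need to become ganglion cells, rose 1.69-fold at E20 (log2 fold change 0.76, SE 0.27, edgeR adjusted p 0.0287) and had a log2 value of 0.25 at P1, with a difference of 0.51 that was not called. That rise was not called without E20_NTC replicate 1 (0.62) or E20_NTC replicate 2 (0.59), nor with detection of Kdm5d (0.45) or Kdm5d at 10 or more counts (0.48) as a covariate.

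Irx1 (chr13:71957921-71963723) was at 5.95, 5.69 and 6.91 CPM in E20_NTC and at 1.38, 1.39 and 1.07 CPM in E20_ONC. It was at 3.82, 3.53, 4.88 and 4.71 CPM in P1_NTC and at 1.13, 2.17 and 3.21 CPM in P1_ONC, so that the groups were apart at both ages with the narrower gap at P1. It fell to 0.208 of the control at E20 (log2 fold change -2.27, SE 0.34, edgeR adjusted p 0.000273) and to 0.515 at P1 (-0.96, SE 0.31, adjusted p 0.0185). The difference of -1.31 (SE 0.45, 95% interval -2.28 to -0.34, edgeR adjusted p 0.0605) was not called without E20_NTC replicate 2 (-1.36), E20_NTC replicate 3 (-1.22), E20_ONC replicate 2 (-1.37), E20_ONC replicate 3 (-1.20), P1_ONC replicate 2 (-1.31) or P1_ONC replicate 4 (-0.92). Without P1_NTC replicates 3 and 4 it was -1.51 and not called, and the fall at P1 (-0.75) was not called either.

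Sall3 (chr18:80966376-80986578) was at 22.6, 23.4 and 51.5 CPM in E20_NTC, at 12.2, 16.7 and 13.2 CPM in E20_ONC, at 43.3, 48.2, 112 and 88.5 CPM in P1_NTC and at 20.4, 19.5 and 13.6 CPM in P1_ONC. The groups did not overlap at either age, and E20_NTC replicate 3 and P1_NTC replicates 3 and 4 were high among their controls. It fell to 0.433 at E20 (log2 fold change -1.21, SE 0.42, edgeR adjusted p 0.0251) and to 0.244 at P1 (-2.03, SE 0.41, adjusted p 0.00137), with a difference of 0.83 (95% interval -0.40 to 2.06). Without E20_NTC replicate 3 the value at E20 was -0.71 and not called.

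Besides Irx1 and Fgf3, no gene of this list had a called difference. Irx2, a paralogue of Irx1, fell to 0.573 at E20 (log2 fold change -0.80, SE 0.30, edgeR adjusted p 0.0331) and had a log2 value of -0.02 at P1, with a difference of -0.78 (adjusted p 0.197). The fall was not called without E20_ONC replicate 3 (-0.71), in 1 fit of all 6 groups (edgeR adjusted p 0.130), or with detection of Kdm5d (-0.62) or Kdm5d at 10 or more counts (-0.56) as a covariate. Sox1, a SOX-family gene of neural progenitors, fell at P1 from 4, 15, 6 and 10 counts to 1, 1 and 3 counts (log2 fold change -2.31, SE 0.78, edgeR adjusted p 0.0241), beside -1.05 at E20, where it was not called. Foxn4, a progenitor factor for amacrine and horizontal cells, stood at 171 to 224 CPM in the 6 libraries of E20 and at 101 to 138 CPM in the 7 of P1. Its log2 fold changes were 0.11 and -0.01, and the interval of the difference was -0.50 to 0.74. Aldh1a3 (0.07 and -0.25), which makes retinoic acid, and Sox14 (-0.29 and -0.65) were not called at either age.

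A group of genes fell at both ages with no called difference. Besides Sall3 these were the neighbouring zinc finger genes Zfp97 and Zfp960, the ETS gene Spdef, the long non-coding RNA Dio3os beside the thyroid hormone deiodinase gene, and Nrl, which encodes the rod-determining factor. For Zfp97, Zfp960, Spdef and Dio3os the fall at E20 was to between 0.213 and 0.340 of the control, and at P1 to between 0.330 and 0.556.

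Zfp97 (chr17:17121415-17146831) was at 2.22, 2.10 and 2.66 CPM in E20_NTC, at 0.590, 0.624 and 0.536 CPM in E20_ONC, at 3.88, 2.47, 3.41 and 3.89 CPM in P1_NTC and at 1.32, 1.37 and 0.675 CPM in P1_ONC. The groups stood apart at both ages. The log2 fold change was -1.98 at E20 (SE 0.32, edgeR adjusted p 0.000279) and -1.60 at P1 (SE 0.28, adjusted p 0.000584), and the difference was -0.38 (95% interval -1.29 to 0.52). Zfp960 (chr17:17064113-17089628) ran from 2.29 to 2.72 CPM in E20_NTC, from 0.469 to 0.786 CPM in E20_ONC, from 2.36 to 4.14 CPM in P1_NTC and from 0.957 to 1.54 CPM in P1_ONC. Its log2 fold changes were -1.97 and -1.30 (edgeR adjusted p 0.000279 and 0.00212), with a difference of -0.68 (95% interval -1.58 to 0.23). Of the stretches of 100 bases in the Zfp97 transcripts 67.3% also occur in Zfp960, and 68.3% the other way, so these genes may be 1 measurement rather than separate ones.

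Spdef (chr17:27714352-27728955) was at 1.91, 3.59 and 2.46 CPM in E20_NTC, at 0.590, 0.416 and 0.670 CPM in E20_ONC, at 1.68, 2.36, 2.15 and 2.80 CPM in P1_NTC and at 0.565, 0.629 and 1.18 CPM in P1_ONC. It fell by 2.23 on the log2 scale at E20 (SE 0.37, edgeR adjusted p 0.000316) and by 1.49 at P1 (SE 0.34, adjusted p 0.00304), with no overlap at either age and a difference of -0.74 (95% interval -1.83 to 0.35). Dio3os (chr12:110275385-110278172) was at 24.0, 23.6 and 17.9 CPM in E20_NTC, at 6.55, 7.97 and 7.77 CPM in E20_ONC, at 10.2, 12.0, 9.34 and 9.17 CPM in P1_NTC and at 4.08, 6.98 and 5.91 CPM in P1_ONC. The embryonic controls were above the newborn controls, and the groups did not overlap. It fell by 1.55 at E20 (SE 0.25, edgeR adjusted p 0.000279) and by 0.85 at P1 (SE 0.24, adjusted p 0.0106). The difference of -0.71 (95% interval -1.44 to 0.02, adjusted p 0.179) was not called, although it was -0.90 and called without P1_ONC replicate 1.

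Nrl was the only one of 6 photoreceptor genes called at both ages, and of all 45 genes 15.6% were called lower at both. Nrl (chr14:55518978-55524981) was at 67.7, 83.9 and 145 CPM in E20_NTC, at 64.0, 48.2 and 50.3 CPM in E20_ONC, at 234, 239, 241 and 258 CPM in P1_NTC and at 180, 141 and 151 CPM in P1_ONC. It fell to 0.548 at E20 (log2 fold change -0.87, SE 0.28, edgeR adjusted p 0.0176) and to 0.648 at P1 (-0.63, SE 0.26, adjusted p 0.0654), with a difference of -0.24 (95% interval -1.05 to 0.57). The fall at E20 was -0.49 and no longer past the 1.5-fold limit without E20_NTC replicate 3. The fall at P1 was not called without P1_NTC replicate 3 (-0.63), P1_NTC replicate 4 (-0.60), P1_ONC replicate 2 (-0.55) or P1_ONC replicate 4 (-0.60). Without P1_NTC replicates 3 and 4 together it was -0.59 and not called.

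Of the other photoreceptor genes Impg1, which encodes a proteoglycan of the matrix around photoreceptors, rose at P1 from 19, 8, 14 and 17 counts to 41, 27 and 37 counts (2.43-fold, log2 fold change 1.28, SE 0.41, edgeR adjusted p 0.0185). At E20 it had 4 counts in all in E20_NTC and 2 in E20_ONC, a ratio of 0.566 with a counting interval of 0.0512 to 3.95, too few to set against P1. Cnga1, Gngt1 and Guca1a, which encode a rod channel subunit, the rod transducin gamma subunit and a guanylate cyclase activator, were not called at either age. At E20 Cnga1 had 3 counts in all in E20_NTC and 5 in E20_ONC, a ratio of 1.89 with a counting interval of 0.367 to 12.2. The median log2 effect of the 6 genes was -0.31 at E20 and 0.12 at P1, beside 0.11 and -0.02 over all 45 genes. The value at E20 includes fitted effects that rest on few counts, such as those of Cnga1 and Impg1, and is uncertain.

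Both genes of the optic nerve head and its astrocytes fell at E20 and neither was called at P1. Over all 45 genes 24.4% fell at E20 and 51.1% were called at P1. The study had listed both genes for their change after ONC at E20 in the same libraries. Mlc1 encodes an astrocyte membrane protein, and Pax2 encodes the paired box factor of the optic stalk and of the astrocyte precursors that come from it. Their summed level ran from 3.45 to 11.9 CPM in E20_NTC and from 0.762 to 2.75 CPM in E20_ONC, without overlap, whereas 8.98 to 18.4 CPM in P1_NTC overlapped 5.55 to 19.0 CPM in P1_ONC.

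Mlc1 (chr15:88955884-88979007) was at 1.34, 2.60 and 0.797 CPM in E20_NTC and at 0.0655, 0.0693 and 0.268 CPM in E20_ONC, which rest on 1, 1 and 4 counts. In the newborn it was at 6.54, 8.42, 4.25 and 4.40 CPM in P1_NTC and at 3.14, 2.003 and 8.50 CPM in P1_ONC, where replicate 4 exceeded all controls. It fell to 0.0893 at E20 (log2 fold change -3.48, SE 0.79, edgeR adjusted p 0.00322), beside -0.37 at P1 (SE 0.51, adjusted p 0.609). The difference of -3.11 (SE 0.95, 95% interval -5.16 to -1.06, edgeR adjusted p 0.0492) was called. It was not called without E20_NTC replicate 2 (-2.56), E20_ONC replicate 2 (-2.82) or P1_NTC replicates 3 and 4 together (-2.77), nor with detection of Kdm5d (-2.26, edgeR adjusted p 0.115) or Kdm5d at 10 or more counts (adjusted p 0.139) as a covariate. The call was also lost with the replicate block (-2.65, edgeR adjusted p 0.203). With limma it was lost on log2(FPKM + 0.1) (-1.54, limma adjusted p 0.108) and on log2(FPKM + 1) (-0.24, adjusted p 0.751).

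Pax2 (chr19:44756045-44837871) was at 5.64, 9.34 and 2.66 CPM in E20_NTC and at 1.38, 0.693 and 2.48 CPM in E20_ONC, close to overlap. In P1_NTC it was at 8.51, 9.96, 6.71 and 4.59 CPM and in P1_ONC at 6.41, 3.55 and 10.5 CPM. It fell to 0.259 at E20 (log2 fold change -1.95, SE 0.57, edgeR adjusted p 0.0125), and the value at P1 was -0.13 (SE 0.49, adjusted p 0.898). With detection of Kdm5d as a covariate the fall at E20 was -1.24 and not called (edgeR adjusted p 0.103). The difference of -1.82 (95% interval -3.43 to -0.21, adjusted p 0.121) was not called, but was called without E20_NTC replicate 3 (-2.17), E20_ONC replicate 3 (-2.37), P1_NTC replicate 2 (-1.99) or P1_ONC replicate 2 (-2.13). In both genes E20_NTC replicate 2 was the highest embryonic control and P1_ONC replicate 4 the highest newborn retina after ONC. Whether the amount of optic nerve head tissue in a sample took part in these values was not tested.

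The injury genes Gstp2 and Lcn2 were nearly absent from control embryos and were found after ONC at E20. Gstp2 encodes a glutathione transferase that detoxifies reactive compounds, and Lcn2 encodes lipocalin 2, a secreted protein of reactive glia and inflammation. Of this list of 3 genes, all were called higher at E20, where 35.6% of all genes were, and at P1 only Nfkb2 was, beside 24.4% of all genes. The study had listed all 3 for their change after ONC at E20 in the same libraries, so these counts reflect that choice.

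Gstp2 (chr19:4040285-4042236) had 0, 1 and 0 counts in E20_NTC and 5, 24 and 8 counts in E20_ONC, a ratio of 41.9 per assigned fragment with a 95% counting interval of 7.07 to 1700 (edgeR adjusted p 0.013). At P1 it had 0, 0, 14 and 5 counts in P1_NTC and 0, 1 and 2 in P1_ONC, a ratio of 0.213 with a counting interval of 0.0404 to 0.723 (edgeR adjusted p 0.276). The intervals cover counting error only. All newborn control counts came from P1_NTC replicates 3 and 4. The difference was called (fitted log2 value 7.02, 95% interval 2.64 to 11.40, edgeR adjusted p 0.0492), but not without P1_NTC replicate 3 (5.66) nor without both libraries (1.83, adjusted p 0.852), nor with Kdm5d at 10 or more counts as a covariate (5.15, edgeR adjusted p 0.136). Of the stretches of 100 bases in its transcripts 46.9% occur in other genes, mostly Gstp1, so its counts are uncertain.

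Lcn2 (chr2:32384633-32388252) had 0, 2 and 1 counts in E20_NTC and 2, 5 and 52 counts in E20_ONC, so that 1 library held most of the signal and the groups touched at 2 counts. The ratio was 22.3 with a counting interval of 7.26 to 111 (edgeR adjusted p 0.0157), and without E20_ONC replicate 3 the log2 fold change was 1.86 and not called. With detection of Kdm5d as a covariate it was 3.92 and not called (edgeR adjusted p 0.134). At P1 it had 0, 1, 1 and 0 counts in P1_NTC and 0 in P1_ONC, which gives no fold change, and the difference was not called (edgeR adjusted p 0.221).

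Genes of the pigment epithelium and of the lens, tissues that lie against the retina, changed at P1. Ttr, which encodes the thyroxine and retinol carrier transthyretin, and Slco1a4, which encodes an organic anion transporter, fell at P1 and were not called at E20. Cryaa, which encodes the lens chaperone alpha-A crystallin, rose at P1. The summed level of Ttr and Slco1a4 ran from 0.414 to 3.39 CPM in E20_NTC, from 1.01 to 7.90 CPM in E20_ONC, from 5.50 to 29.6 CPM in P1_NTC and from 0.900 to 3.32 CPM in P1_ONC. Slco1a4 was at 0 in at least 1 library of each group except P1_NTC. Whether adhering tissue took part in these results was not tested.

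Ttr (chr18:20665250-20674324) was at 0.414, 1.30 and 3.25 CPM in E20_NTC and at 2.36, 7.62 and 1.01 CPM in E20_ONC, with overlap. It was at 5.27, 5.77, 25.6 and 19.6 CPM in P1_NTC and at 0.942, 3.15 and 0.900 CPM in P1_ONC, all below the controls, of which replicates 3 and 4 were far above replicates 1 and 2. The log2 fold change was 1.16 at E20 (SE 0.91, edgeR adjusted p 0.315) and -3.07 at P1 (SE 0.90, adjusted p 0.0136), a fall to 0.119. The difference of 4.23 (SE 1.26, 95% interval 1.49 to 6.98, edgeR adjusted p 0.0492) was not called without E20_NTC replicate 2 (4.09) or E20_ONC replicate 2 (3.12). Without P1_NTC replicates 3 and 4 it was 2.89 and not called, and neither was the fall at P1 (-1.72).

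Slco1a4 (chr6:141805440-141856199) had 4, 2, 75 and 29 counts in P1_NTC and 1, 3 and 0 in P1_ONC, beside 0, 0 and 2 counts in E20_NTC and 1, 4 and 0 in E20_ONC. Again replicates 3 and 4 set the newborn controls apart. It fell by 4.18 on the log2 scale at P1 (SE 1.31, edgeR adjusted p 0.0185), but the value without P1_NTC replicates 3 and 4 was -1.09 and not called. At E20 the ratio was 2.83 with a counting interval of 0.464 to 29.7. The difference had a fitted value of 5.51 (95% interval -0.26 to 11.29, adjusted p 0.179) and was not called. Without P1_NTC replicate 2 it was called (5.90).

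Cryaa (chr17:31677933-31681724) had 7, 1, 9 and 47 counts in P1_NTC and 333, 718 and 128 counts in P1_ONC, and 0, 1 and 0 counts in E20_NTC and 1, 5 and 4 in E20_ONC. The ONC libraries were above the controls at both ages. It rose 23.7-fold at P1 (log2 fold change 4.57, SE 0.87, edgeR adjusted p 0.00101), and the ratio at E20 was 11.3 with a counting interval of 1.61 to 492 (edgeR adjusted p 0.229). The embryonic counts were too few to compare the ages, and the interval of the difference ran from -11.44 to 8.47. Cryaa shares 13.2% of its exon bases with AC090881.2 on the opposite strand.

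**Figure D5:**
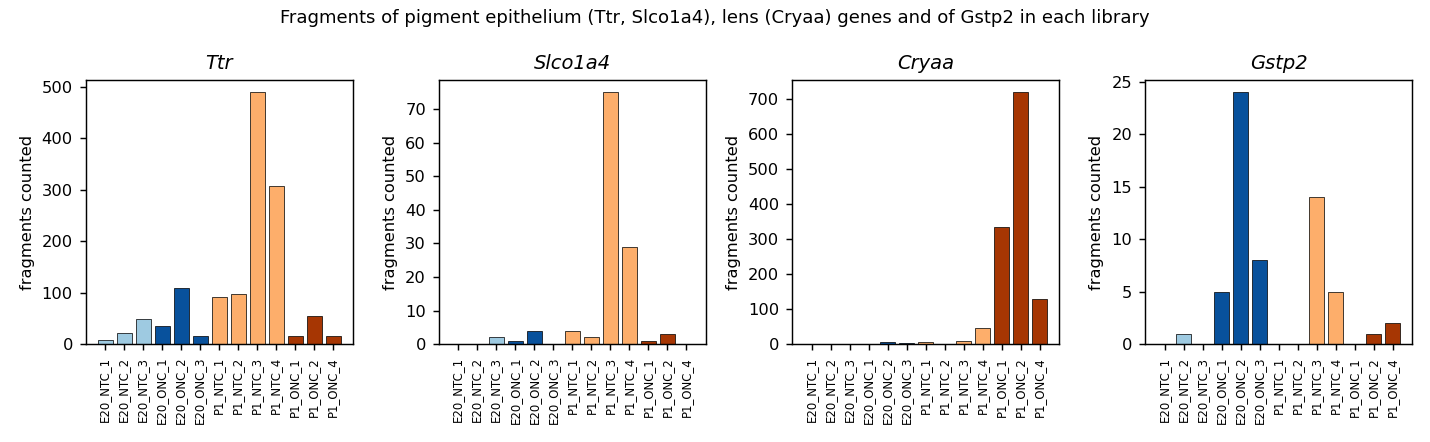
Fragments counted in each library (bars, coloured by group) for the pigment epithelium genes Ttr and Slco1a4, the lens gene Cryaa and Gstp2, with separate vertical axes. In P1_NTC, Ttr is spread from 91 to 489 fragments and Slco1a4 from 2 to 75. Cryaa reaches 128 to 718 fragments in P1_ONC, and Gstp2 reaches 5 to 24 in E20_ONC.

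Of 13 other transcription factor genes, among them Bhlhe41, Creb5, Etv4, Spdef and the Zfp genes above, 7 rose and 4 fell at E20 (35.6% and 24.4% of all genes did) and 3 rose and 4 fell at P1 (24.4% and 26.7% of all genes). The study had listed Etv4, Spdef, Hnf4g, Zfp97, Zfp960, Gm4981 and AW822073 for their change after ONC at E20 in the same libraries. It had listed Zfp296 and Zfp692 for their change at P1, so these counts reflect that choice. Hnf4g, which encodes a nuclear receptor of the hepatocyte nuclear factor 4 family, fell at E20 from 2.02, 1.24 and 2.72 CPM to 0.852, 0.416 and 0.402 CPM (log2 fold change -1.82, SE 0.43, edgeR adjusted p 0.00399). At P1 the log2 value was -0.43, with groups that overlapped, and the difference of -1.39 (95% interval -2.67 to -0.11, adjusted p 0.131) was not called. Gm4981 rose at E20 from 2, 6 and 2 counts to 3, 22 and 25 counts (log2 fold change 2.46, SE 0.75, edgeR adjusted p 0.0146) and had no more than 2 counts in any library of P1. AW822073 rose at E20 from 2, 15 and 10 counts to 24, 59 and 30 counts (2.19, SE 0.68, edgeR adjusted p 0.0251), a rise that was not called with detection of Kdm5d (adjusted p 0.186) or Kdm5d at 10 or more counts (adjusted p 0.134) as a covariate. It had 0 counts in all 7 libraries of P1, so neither a fold change at P1 nor a difference between the ages could be measured. Of the stretches of 100 bases in its transcripts 26.7% occur in other genes. Pax7 and Nfatc4 were not called at either age, nor were Ecel1 and Aspg among the other genes, and their log2 values lay between -0.64 and 0.21.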

How the data were processed

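The authors isolated RNA from single retinas, sequenced its poly(A) fraction, used HISAT2 2.0.5 to map the reads to mm10 and counted fragments per gene with featureCounts 1.5.0-p3, which gave the deposited counts. The deposited FPKM values were made by the authors from these counts by gene length and assigned total. The strand setting is not given in the sources used here. Of 51 table entries, 5 were repeats and were used once, which left 46 genes. The deposited counts, FPKM and gene lengths together gave each library's assigned total (count over FPKM and length), which served as library size without composition factors.

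The 4 groups were fitted together by edgeR 4.0.16 (R 4.3.3) with the two-sided quasi-likelihood F test and no abundance trend. All 45 genes had at least 10 counts summed over the 13 libraries, and the Benjamini-Hochberg adjustment ran over these genes. The SE is the size of the log2 value over the t value that gives the test's p. This SE, and the interval made from it, is approximate where counts are few. For Cryaa it was 4.59 for the difference, beside 2.05 at E20 and 0.87 at P1. The within-age effects and their difference come from this fit. The limits for a call were an adjusted p of 0.1 for the difference, and for an effect within an age the same limit together with a 1.5-fold change. Ratios of summed counts replace fitted folds where a group had 1 to 3 counts, with exact 95% intervals that cover counting error only, and no fold is given where both groups held 3 counts or fewer.

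Values by library are given for each gene called in the difference or called in the same direction at both ages, and for each gene of the immediate early, injury, optic nerve head, lens and pigment epithelium lists. The genes and lists were chosen with earlier results of these data known. The 29 alternatives were DESeq2 1.42.0, TMM and median-of-ratios factors, 2 filters, 1 fit of all 6 groups, limma 3.58.1 on log2(FPKM + 0.1) or log2(FPKM + 1), an adjusted p under 0.05, a replicate block, detection of Kdm5d as a covariate, Kdm5d kept in the table, each age on its own, each of the 13 libraries left out, and 3 added after the values had been seen (Kdm5d at 10 or more counts as a covariate, P1_NTC replicates 3 and 4 left out together, and genes of lens, pigment epithelium and optic nerve head left out). The tests were tried on simulated data first. Gene positions are those of the deposited files, all 46 genes were found in GENCODE vM21 (41 with the same coordinates), and 33 had a RefSeq promoter entry. Tables and figures were made with Python 3.11.15, pandas 2.3.3, scipy 1.17.1 and matplotlib 3.10.9. The P3 libraries were used only in the fit of all groups. The fits and counts include 1 gene whose own values are not reported here.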

Additional observations from a re-analysis of the deposited data

Results flagged for a closer look

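The effect of ONC differed between E20 and P1 by the test of the difference itself (edgeR, adjusted p under 0.1) in 10 genes. The log2 effect at E20 minus that at P1 was 7.02 for Gstp2, 4.23 for Ttr, 2.22 for Bhlhe41, 1.45 for Fgf3, 1.24 for Gm39119 and 1.06 for Etv4. It was -3.11 for Mlc1, -2.38 for Fosb, -1.34 for Egr1 and -1.31 for Irx1.

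In P1_NTC, the only group with 4 libraries, 1 library stood far from the other 3 in 4 of 44 genes tested, where chance gives about 1 in 20. Replicate 4 was the one for Cryaa (2.99 CPM), Gm39119 (1.21 CPM) and Foxn4 (101 CPM), and replicate 1 for Hnf4g (1.68 CPM).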

How the results depend on the processing

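Of the 10 called differences, all kept their sign under every alternative run, and Bhlhe41 kept its call in all of them. The 4 genes with a lower effect at E20 became 2 with TMM or median-of-ratios factors or with either Kdm5d covariate, 1 in the fit of all 6 groups, at an adjusted p under 0.05, with the replicate block or without P1_NTC replicates 3 and 4, and 9 with limma on log2(FPKM + 1). The 6 with a higher effect became 3 in the fit of all 6 groups and without P1_NTC replicates 3 and 4, and 2 with the replicate block. With 1 library left out these counts ran from 0 to 5 and from 4 to 7. DESeq2 called 13 differences in all, and 12 genes had an unadjusted p under 0.05. Limma on log2(FPKM + 1), which shrinks changes of low genes, called 9 genes higher at E20, 5 higher and 6 lower at P1, 2 higher and 4 lower at both ages. TMM factors shifted the median effect at P1 by -0.31 and the median difference by 0.29, and median-of-ratios factors shifted the median effects by 0.13 and 0.10. Among uncalled differences the sign turned with TMM factors for Nrl (0.11) and Fos (0.12), with limma on log2(FPKM + 0.1) for Cpne1 (0.12) and on log2(FPKM + 1) for Cpne1 (0.0474), Zfp97 (0.0619) and Creb5 (-0.0183), and for Nfkb2 with the replicate block (-0.15), with Kdm5d at 10 or more counts (-0.10) and without P1_NTC replicates 3 and 4 (-0.49). With 1 library left out it ran from -3.07 to 0.38 for Cryaa, -1.48 to 0.72 for Cpne1, -0.45 to 0.14 for Nrl, -0.43 to 0.27 for Fos and -0.079 to 0.36 for Nfkb2. The causes were not tested. No pairing of the libraries by replicate number was seen. None of 6 same-numbered pairs correlated over 0.1 (-0.473 to 0.0830), and 1 ONC library correlated best with its own number. The correlated values were deviations from means of 3 or 4 libraries, so this check cannot exclude a pairing. No replicate pair was close enough to be a library deposited more than once (chi-square 2.61 to 46.6 per gene). Genes with few counts at E20 (Cryaa, Slco1a4, Impg1, Cnga1) or P1 (Lcn2, AW822073, Gm4981) are limited by depth.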
